A study of Rattus norvegicus with 6 samples.

Results

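The deposited expression table lists 22536 rows, of which 22245 carry an Ensembl gene identifier and 291 carry only an identifier that begins with XLOC. These 291 rows, 1.29% of the table, are the assembled loci described here, chosen by that identifier alone and not by any measured value. The libraries come from 6 male rats, 3 controls and 3 animals labelled PDN, which the series title spells out as painful diabetic neuropathy, a nerve disease of diabetes. All samples carry the tissue label sensory neuron. The title names the dorsal root ganglion, where the cell bodies of the body's sensory neurons lie together with glia, vessels and connective tissue. It also names hyodeoxycholic acid, a bile acid, but no sample used here is labelled with it. The sources used here do not give the strain or age of the rats, or how diabetes was induced. Each library is taken as 1 rat, from the design text.

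An XLOC identifier is the kind of name that transcript assembly programs give to a stretch of genome where sequenced fragments line up into a transcript. Such a locus can be a gene missing from the annotation in use, a piece or an extension of a neighbouring gene, or a transcript read from the other strand. The rat annotation has held many such gaps, and some rows that it does include carry clone-type names in place of gene symbols. The table is named for mRNA, so the loci are listed beside protein-coding genes. It gives each locus a chromosome, a start and an end, but no strand, exon structure or sequence, and it names no genome build. Positions below are therefore printed as the file gives them, and no sequence of a locus is shown.

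The libraries had the markers of the labelled tissue. All 13 listed sensory neuron markers, among them the nociceptor sodium channel gene Scn10a and the filament gene Prph, were at 1 FPKM or more in every library. FPKM counts fragments scaled to transcript length and library size. Schwann cell, satellite glia and fibroblast markers were also at 1 FPKM or more in every library, 13 of 13 genes, and 3 of 5 macrophage markers were. Summed over 4 markers, fibroblast genes were at 299 to 334 FPKM in controls and 264 to 282 in PDN, so these sums did not overlap between the groups, and their part in the comparisons below was not tested. Summed over 5 markers, macrophage genes were at 20.1 to 31.3 FPKM in controls and 16.0 to 21.2 in PDN. Summed over 4, red blood cell genes were at 157 to 233 in controls and 74.5 to 178 in PDN. Endothelial genes, summed over 2, were at 25.4 to 32.3 in controls and 31.0 to 33.1 in PDN. Of these, Cldn5 was higher and Cdh5 lower in each PDN library than in any control. Skeletal muscle markers differed between libraries within each group, with a sum over 7 genes of 506 FPKM in control 2, 166 in PDN 3, 31.4 in PDN 1 and 1.92 to 2.15 in the other 3. The number of fragments per library is not known from the tables. Summed, the assembled loci made up 0.301% to 0.342% of all FPKM in each library.

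The loci were spread over the genome. Of the 291, 280 were on 21 chromosomes and 11 on unplaced sequences. Chromosome 1 held 38, chromosome 7 held 27 and chromosome 10 held 19. Relative to the annotated rows on the same chromosome this was 12.7, 20.6 and 10.9 loci per 1000 Ensembl rows, so the large number on chromosome 1 went with its many genes. Most loci stood alone, with 248 having no other assembled locus within 50 kb. The closest sets were 4 loci on chromosome 12 between 37238330 and 37325588, 3 on chromosome 10 between 104407584 and 104428019, and 18 sets of 2.

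Their spans ran from 930 bases to 950736 bases with a median of 23577, against a median of 15339 for Ensembl rows. A total of 43 loci spanned 100 kb or more and 41 spanned less than 5 kb. Against the annotated rows, 48 loci (16.5%) overlapped an Ensembl row by at least 1 base, 238 overlapped none, and 5 lay on sequences that hold no Ensembl row. Only 27 had at least 50% of their span covered by a single Ensembl row. Of the 48, 13 lay wholly inside an Ensembl row and 19 had an Ensembl row wholly inside them, and a locus could do both. Of the 238 that overlapped none, 76 were within 10 kb of a row and 55 were more than 100 kb from any, with a median gap of 26533 bases. Since no strand is given, a locus and an overlapped gene may be on the same strand or on opposite strands.

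**Figure D1:**
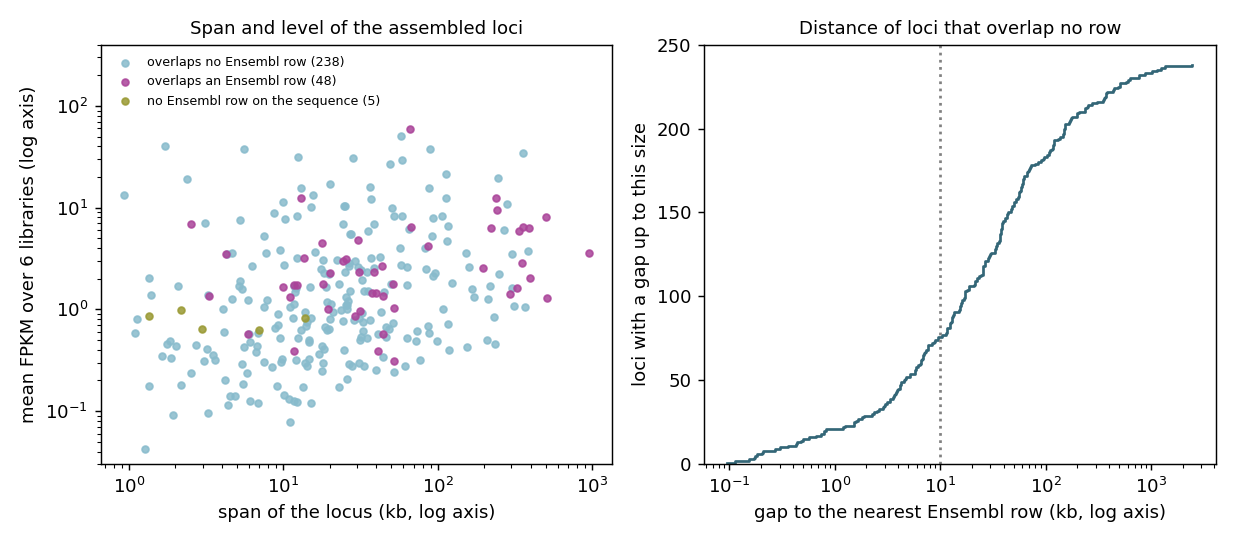
Left, span of each assembled locus in kb against its mean FPKM over the 6 libraries, both on log axes, with loci coloured by whether they overlap an Ensembl row. Right, number of the 238 non-overlapping loci whose gap to the nearest Ensembl row is at most the size on the log axis, with a dotted line at 10 kb. Long loci reach higher levels somewhat more often than short ones, and 76 gaps lie left of the line.

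Most loci were transcribed at a low level. The mean over the 6 libraries was 10 FPKM or more for 28 loci, 1 to 10 for 136 and under 1 for 127, with a median of 1.28 FPKM and a highest mean of 59.9. A total of 269 loci (92.4%) were above 0 in every library and none was listed at 0 in all. If the loci were assembled from these libraries, which the sources used here do not say, their listing required fragments. The counts of loci at or above 0 are therefore not set against the Ensembl rows. Contrasts of level or spread with those rows carry the same limit. Where they were tested, at 1 FPKM or more in at least 3 libraries, the 165 loci had a median of 2.85 FPKM and the 13117 Ensembl rows a median of 9.45. Longer loci tended to have higher levels, with a Spearman rho of 0.34 across the 291 loci, all of which share the same 6 libraries.

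To describe what lies at these places, the named genes on either side of each locus were looked up in the gene order of RefSeq's annotation of the GRCr8 assembly. RefSeq is a second, independently curated gene set. Of 22245 Ensembl rows, 18384 matched a RefSeq gene by symbol or synonym, and 17922 were used for gene order. For 190 loci, the nearest named gene on each side had no other gene of the table between them in RefSeq order. For 123 of these (64.7%), RefSeq places at least 1 protein-coding gene there that no row of the table names, with exactly 1 such gene for 69 loci. For the other 67 there was none. Leaving out symbols that begin with LOC or RGD, 110 of the 123 loci still had such a gene. Intervals between neighbouring named genes of the table were kept under the same condition, with no other gene of the table between them in RefSeq order. Among those kept, 61.5% of the 156 that hold an assembled locus contain such a gene, against 13.0% of the 14832 that hold none. Intervals with a locus were wider, with a median of 308 kb against 18.5 kb. Among intervals of 100 kb or more the shares were 66.1% of 115 and 34.8% of 2575, with medians of 500 kb and 240 kb. Without LOC and RGD symbols the shares were 53.85% and 9.55% over all kept intervals. Among those of 100 kb or more they were then 57.4% and 25.3%. A gene named this way is a neighbour in order and not a proven identity of the locus, and a clone-named row of the table may hold the same gene.

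The most abundant locus was XLOC_226760 (chromosome 9, 20146460 to 20212917). It was at 65.8, 63.5 and 64.3 FPKM in controls 1 to 3 and at 44.2, 58.0 and 63.6 in PDN 1 to 3. The lowest value was in PDN 1, and PDN 3 lay inside the control range. The locus shares 49107 bases, 73.9% of its span, with the row of Adgrf5, an adhesion G protein-coupled receptor gene, which was at only 6.88 to 8.80 FPKM in the same libraries.

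XLOC_069447 (chromosome 15, 3692059 to 3750004) came next in level. It was at 46.9, 43.3 and 52.6 FPKM in controls and at 55.1, 51.4 and 53.7 in PDN, so the groups overlapped at control 3. A second assembled locus, XLOC_074484 (chromosome 15, 3684524 to 3750001), covers 99.99% of the same stretch at a lower level, with a ratio of the means of 0.121. XLOC_069447 ends 4257 bases before Ndst2, a heparan sulfate sulfotransferase gene, which was at 1.46 to 1.81 FPKM.

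Of the other 6 among the 8 most abundant loci, none overlapped an Ensembl row. XLOC_090167 (chromosome 17, 60734805 to 60736513), a locus of 1709 bases, was at 35.8 to 45.4 FPKM and lay 148446 bases from Wac, the nearest row. XLOC_015012 (chromosome 1, 13985801 to 14075348) was at 32.2 to 41.4 FPKM, between Arfgef3 and Perp, where RefSeq places Smokl1. XLOC_233933 (chromosome 9, 84123351 to 84128909) was at 34.9 to 37.1 FPKM in controls and 38.1 to 39.1 in PDN. It lay 22178 bases from Pax3, a transcription factor gene of the neural crest, which did not exceed 0.276 FPKM. XLOC_091423 ran from base 1 to base 357167 of chromosome 17, the start of the sequence, at 31.3 to 36.7 FPKM.

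XLOC_109791 (chromosome 19, 41802396 to 41814883) was at 29.8 to 34.4 FPKM, between Phlpp2 and Zfp821, where RefSeq places Atxn1l and Ap1g1, the latter a subunit of a clathrin adaptor. XLOC_095090 (chromosome 17, 72109005 to 72137437) was at 33.8, 32.8 and 31.6 FPKM in controls and 27.2, 26.5 and 32.7 in PDN. In its interval, between Sfmbt2 and Itih2, RefSeq places Itih5, of the family of heavy chains that bind hyaluronan in the matrix. Its PDN 1 and PDN 2 values lay below all controls and PDN 3 within them. The neighbouring row of Itih2, from the same gene family, did not exceed 0.041 FPKM.

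**Figure D2:**
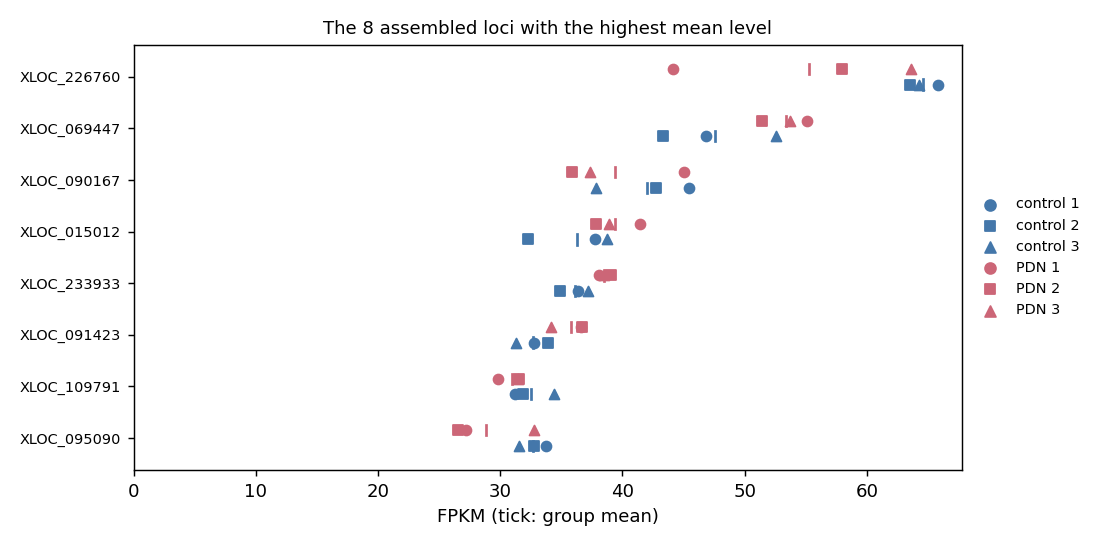
FPKM of the 8 most abundant assembled loci in each library, on a linear axis from 0, with controls in blue, PDN in red, a marker shape for each replicate number and a tick at each group's mean. The control and PDN points overlap or lie close together for most of these loci, and for XLOC_226760 PDN 1 sits at 44.2, below the other 5.

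Other loci of at least 3 FPKM sat in intervals where RefSeq places a single gene that the table does not name. They were chosen after their levels were seen. XLOC_082364 (15.4 to 18.2 FPKM) lies between Pomk and Kcnu1, where RefSeq has Hgsnat, a lysosomal enzyme gene of heparan sulfate breakdown. XLOC_202930 (13.8 to 17.1 FPKM) lies 818 bases from Cox6c, where RefSeq has Vps13b, a gene of membrane lipid transport. XLOC_082356 (7.57 to 9.90 FPKM) lies between Rnf170 and Fnta, with Hook3, a microtubule motor adaptor gene.

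In the same way, XLOC_048130 (11.2 to 14.7 FPKM) lies between Mafk and Micall2, with Ints1, a subunit of the Integrator complex of RNA processing. XLOC_128169 (4.95 to 5.95 FPKM) lies between Mab21l1 and Tm4sf1, with Nbea, a neuronal membrane trafficking gene. XLOC_156705 (3.21 to 3.83 FPKM) lies between Sgce and Ppp1r9a, with the imprinted gene Peg10. For each of these 6 loci the control and PDN values overlap.

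XLOC_221440 (chromosome 8, 46228061 to 46287207) belongs to an interval with 2 unnamed RefSeq genes, Sorl1, a sorting receptor of endosomes, and Mir100hgl. It was at 31.3, 22.4 and 31.7 FPKM in controls and at 36.1, 29.7 and 25.8 in PDN. Both the lowest value, in control 2, and the highest, in PDN 1, are far from the middle of their group, and the groups overlap.

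A group of 17 loci lay in intervals where RefSeq places zinc finger genes (symbols beginning with Zfp, Znf or Rex2), a family of DNA-binding repressors that has expanded in tandem arrays. Their median level was 1.49 FPKM and 12 of them were tested. XLOC_004913 on chromosome 1 was the highest of them, at 5.49 to 8.76 FPKM. Between Zfp709l1 and Ankrd24 on chromosome 7 there were 4 such loci with mean levels of 0.62 to 2.56 FPKM. Genes of these arrays are similar in sequence, so the split of fragments among them is uncertain.

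Among the tested loci, the largest variation between animals ran in the order of the skeletal muscle markers and not with the groups. XLOC_023264 (chromosome 1, 197862083 to 197875052) was at 0.462, 65.4 and 0.326 FPKM in controls 1 to 3 and at 4.05, 0.286 and 23.8 in PDN 1 to 3. It was high in control 2 and PDN 3, intermediate in PDN 1 and near 0 in the other 3, the same order as Acta1, the actin of skeletal muscle. Acta1 was at 193 FPKM in control 2, 68.8 in PDN 3, 13.3 in PDN 1 and 1.11 to 1.35 in the rest.

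Between the neighbours of XLOC_023264, Rabep2 and Sh2b1, RefSeq places exactly 1 gene that the table does not name. It is Atp2a1, the calcium pump of the sarcoplasmic reticulum of fast muscle. The neighbours themselves did not vary in this way, with Sh2b1 at 11.4 to 13.6 FPKM and Rabep2 at 7.64 to 9.38. The clone-named row AABR07005775.1, which lies between Rabep2 and the locus, did, at 101 FPKM in control 2, 36.2 in PDN 3, 7.33 in PDN 1 and at most 0.156 in the rest.

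A pair of loci side by side on chromosome 3 showed the same order. XLOC_150062 (63606878 to 63723806) was at 0.793, 25.1 and 0.743 FPKM in controls and at 3.20, 0.399 and 9.47 in PDN. XLOC_150077 (63727477 to 63820325) was at 0.839, 33.3 and 0.910 in controls and at 3.22, 0.804 and 8.74 in PDN. Both lie between Plekha3 and Ccdc141, where RefSeq places exactly 1 gene that the table does not name, Ttn, which encodes titin, the giant spring protein of the sarcomere.

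The rows around this pair show where the pattern stops. The clone-named rows AABR07052585.2 and AABR07052585.1, which flank the pair, were highest in control 2 at 20.6 and 11.7 FPKM. The outer neighbours Plekha3 and Ccdc141 stayed at 11.5 to 14.6 and 7.70 to 8.24 FPKM in all libraries. Another locus of this order, XLOC_121527 on chromosome 2 (243339411 to 243353311), was at 1.12 FPKM in control 2, 0.379 in PDN 3, 0.0874 in PDN 1 and 0.0564 to 0.0676 in the rest.

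In all, 4 of the 291 loci (1.37%) had the order control 2, PDN 3, PDN 1, then the rest. Control 2 had to be at 1 FPKM or more and at least 4 times the rest. Among all 22536 rows there were 62 (0.275%), but 3788 Ensembl rows were at 0 in all libraries and could not qualify. XLOC_150062 and XLOC_150077 also share an interval, so the shares are not like for like. This order was set after the values were seen. All 7 muscle markers found in the table were among the 62. For the 3 tested loci of this kind the group means, such as 22.1 ± 37.6 FPKM in controls and 9.36 ± 12.6 in PDN for XLOC_023264 (SD, n = 3 each), rest on control 2 and PDN 3. The part of muscle RNA in these values was not tested, and sharing this order was the condition for being counted. In bulk tissue, more cells of a type and more RNA per cell cannot be told apart.

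**Figure D3:**
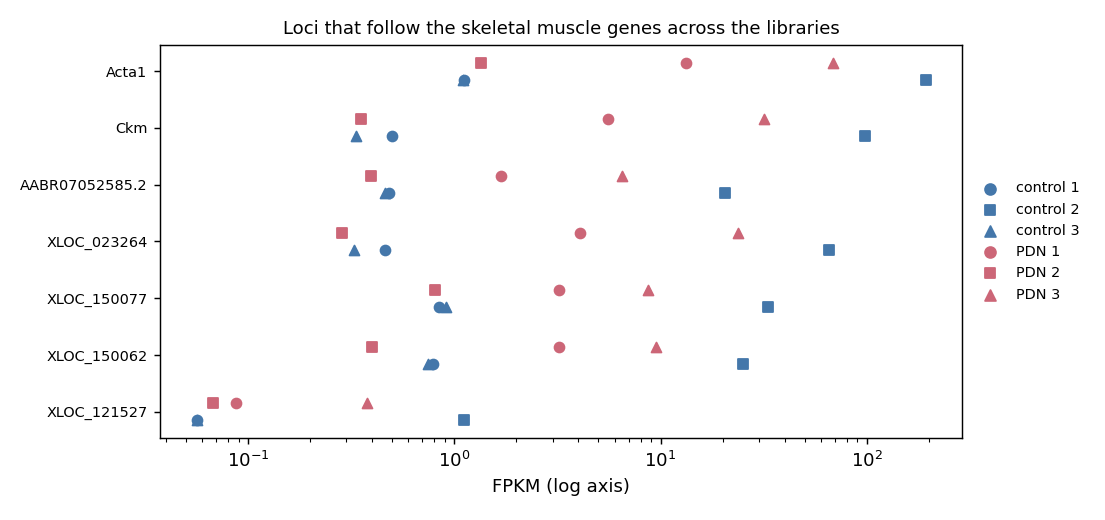
FPKM on a log axis, by library, of the muscle genes Acta1 and Ckm, the clone-named row AABR07052585.2 and the 4 assembled loci with the same order. In each row control 2 is the highest, PDN 3 the second and PDN 1 the third.

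Other loci differed between animals without following group or muscle. XLOC_064803 (chromosome 14, 5537941 to 5556275), between Lrrc8b and the interferon-induced gene Gbp6, was at 4.48, 0.939 and 1.21 FPKM in controls and at 1.88, 3.98 and 1.16 in PDN. Control 1 and PDN 2 were high, while its neighbour Lrrc8b stayed at 13.9 to 18.7 FPKM. XLOC_147598 (chromosome 3, 4613128 to 4617217) was at 0.392, 0.403 and 1.00 in controls and 0.121, 2.13 and 1.99 in PDN. Both the lowest and the highest value of XLOC_147598 were in the PDN group.

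Across the tested loci the ratio of SD to mean over the 6 libraries had a median of 0.164, against 0.0971 for tested Ensembl rows. Part of this goes with level. Between 1 and 3 mean FPKM the medians were 0.212 for 85 loci and 0.171 for 2363 Ensembl rows. Between 3 and 10 FPKM they were 0.148 and 0.106, and between 10 and 100 FPKM 0.101 and 0.0751, so the loci had the higher median within each band.

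The comparison of PDN with control found no assembled locus past the threshold. Each difference was taken as the PDN mean minus the control mean of log2(FPKM + 1), a scale that understates changes of weak loci, and was tested with limma over all 13282 rows that passed the filter. Of the 165 tested loci, 0 had an adjusted p under 0.05, as did 0 of all rows (background 0%). At an unadjusted p under 0.05 there were 7 loci, or 4.24% of those tested, where the share over all rows was 4.72%. Of these 7, 5 were higher in PDN, or 3.03% of tested loci (1.83% over all rows), and 2 lower, or 1.21% (2.89% over all rows). With median-of-ratios scaling the loci divided into 6 higher and 2 lower, and all rows into 312 and 307 in place of 243 and 384. Control and PDN values were fully apart in 11 loci (6.67%), where the share over all rows was 9.93%. PDN was above in 7 of them, or 4.24% of tested loci (3.69% over all rows), and below in 4, or 2.42% (6.24% over all rows). Neither total share exceeded its background. Both shares with PDN higher did, and that difference was not tested.

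The median log2 fold change of the tested loci was 0.0046, beside -0.016 over all rows, and 161 of the 165 estimates were smaller than 0.5 in size. The count of 7 became 12 without control 1 (5 higher, 7 lower), 12 without control 3 (11 higher, 1 lower), 4 without control 2 (1 higher, 3 lower) and 3 without PDN 1 (all higher). The balance of directions thus turned with the control left out. The other 126 loci did not reach 1 FPKM in 3 libraries and have values only.

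The locus with the smallest p was XLOC_043584 (chromosome 11, 12349441 to 12618834). It was at 3.71, 4.73 and 5.08 FPKM in controls and at 7.28, 8.17 and 7.45 in PDN. All 3 PDN libraries were above all 3 controls, a property required for being named here and therefore no finding. On the log2 scale PDN exceeded control by 0.66 ± 0.11 (SE; 95% interval 0.393 to 0.918). The locus was picked for its small p, and the estimate and interval make no allowance for that choice. The adjusted p in limma was 0.587, so the difference did not pass the threshold. Over 15 alternatives it ranged from 0.547 to 0.757, and its lowest adjusted p was 0.42.

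XLOC_043584 lies in a stretch of chromosome 11 that is poor in genes. The nearest row, Robo2, an axon guidance receptor gene expressed in sensory neurons, ends 763675 bases away, and RefSeq places no other protein-coding gene between Robo2 and Lipi. Robo2 itself ranged from 30.5 to 36.2 FPKM, and its group means (33.8 in controls, 34.3 in PDN) were closer than its spread.

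The same stretch holds 2 more assembled loci, named here after their values were seen. XLOC_043575 (12089108 to 12247859) was at 1.38, 1.78 and 2.99 FPKM in controls and at 3.68, 3.03 and 2.84 in PDN. XLOC_043590 (12465601 to 12580898), which lies wholly inside the span of XLOC_043584, was at 2.02, 2.96 and 6.58 in controls and at 7.07, 5.08 and 4.76 in PDN. For both, control 3 lay inside the PDN range. Their log2 fold changes were 0.49 ± 0.19 and 0.55 ± 0.32 (SE), with an adjusted p of 0.999 each in limma.

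XLOC_074484, the weaker of the overlapping loci near Ndst2, was the second locus by p among those higher in PDN. It was at 5.02, 4.26 and 6.07 FPKM in controls and at 8.09, 6.19 and 7.12 in PDN, a log2 fold change of 0.41 ± 0.13 (SE). PDN 2 and control 3 differ little. The 3 others named by the rule on the higher side were XLOC_091423 (log2 fold change 0.13), XLOC_118933 (0.16) and XLOC_132000 (0.19). The value of XLOC_091423 turned to -0.0682 in the second deposited table, which holds whole numbers that in part equal FPKM times span times a constant. That of XLOC_118933 was 0.0979 without control 3, and that of XLOC_132000 was 0.347 with a pseudocount of 0.1 and 0.402 in the second table. The adjusted p of these 3 and of XLOC_074484 was 0.999 in limma.

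For XLOC_118933 (chromosome 2, 184899629 to 184908347) the values were 8.98, 8.60 and 7.53 FPKM in controls and 9.51, 9.32 and 9.59 in PDN. The row nearest to it, 16123 bases away, is the clone-named AABR07012079.1, which was at 1.27, 1.19 and 1.26 FPKM in controls and listed at 0 in all 3 PDN libraries. An exact 0 in a table without counts can be a failed estimate, so no fold is read from it. The adjusted p of AABR07012079.1, 0.0737 in limma, was the smallest of all tested rows. Its fitted log2 difference, -1.16, is among the nearest-row values compared below, as is the 1.52 of LOC108351584, the row nearest to XLOC_205348. That comparison was not repeated without them.

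On the lower side, 4 loci had groups that did not overlap. XLOC_051916 (chromosome 13, 5362961 to 5373124) was at 3.46, 2.57 and 3.30 FPKM in controls and at 2.35, 2.30 and 2.38 in PDN, a log2 fold change of -0.29 ± 0.11 (SE). The PDN values lay close together, and control 2 was the control nearest to them. In the second table the difference was -0.457. The locus is 107025 bases from any Ensembl row, between Dsel and Cntnap5c, where RefSeq places Hmgb1l4.

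XLOC_212960 (chromosome 7, 137596529 to 137679283) ends 1246 bases before Arid2, a subunit of a chromatin remodelling complex. It was at 4.31, 4.36 and 4.58 FPKM in controls and at 3.17, 4.06 and 3.83 in PDN, a log2 fold change of -0.21 ± 0.098 (SE). Arid2 was at 6.12 to 6.69 FPKM over both groups. The difference at XLOC_212960 was -0.132 without PDN 1, and its sign turned in the second deposited table, at 0.0432.

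XLOC_205106 (chromosome 7, 122861958 to 122889075) was at 5.65 to 5.97 FPKM in controls and 5.04 to 5.55 in PDN, a log2 fold change of -0.11 ± 0.076 (SE), with 0.0116 in the second table. RefSeq places Ep300, a histone acetyltransferase gene, and Rps35al1 in its interval between Rbx1 and L3mbtl2. XLOC_025737 was at 12.3 to 13.5 FPKM in controls and 12.0 to 12.3 in PDN, a log2 fold change of -0.069 ± 0.066 (SE), which was -0.035 without control 3. The adjusted p of these 4 loci was 0.999 in limma.

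**Figure D4:**
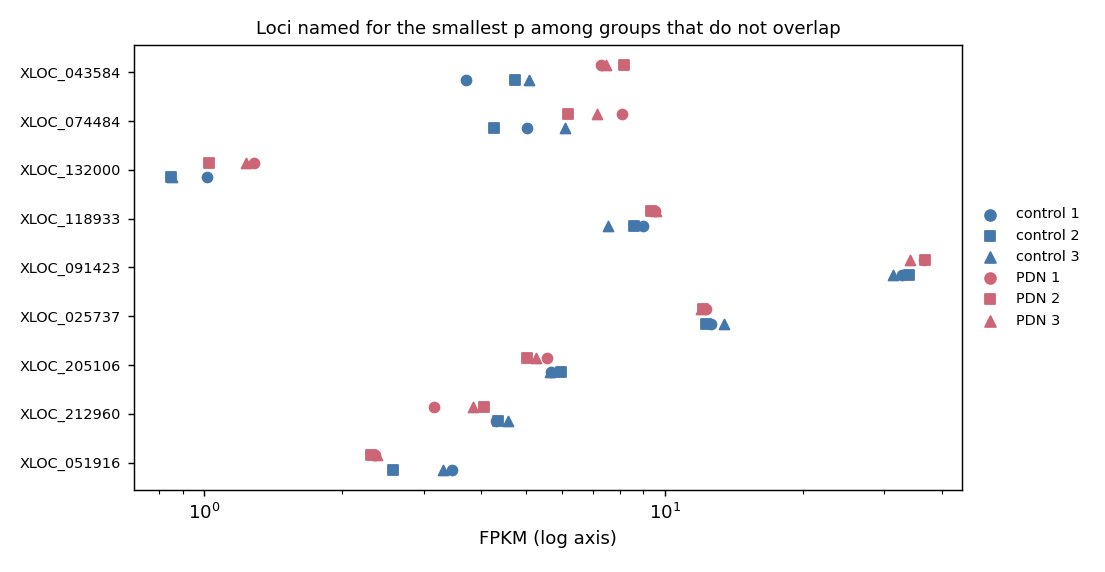
FPKM on a log axis, by library, of the 9 assembled loci named for the smallest p among those whose control (blue) and PDN (red) values do not overlap, ordered by log2 fold change. The gap between the groups is widest for XLOC_043584, at 5.08 against 7.28 FPKM, and the separation itself was the condition for being shown.

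XLOC_204777 was the only locus listed at 0 in all libraries of one group and at 0.1 FPKM or more in all of the other. It lies on chromosome 7 (117094214 to 117104293), 1516 bases from Scrib, a cell polarity gene. It was at 0.286, 0.245 and 0.323 FPKM in controls and listed at 0 in each PDN library. Scrib was at 6.83 to 8.05 FPKM in all 6. Between Fam83h and Scrib, RefSeq places Iqank1. The locus was below the filter, and in the fit without a filter its adjusted p was 0.109 in limma. It was named for its values of 0, which have no spread in PDN, so that p is no finding. Here too an exact 0 can be a failed estimate.

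The difference between groups at a locus showed little relation to that of its nearest annotated row. Over the 118 loci for which both were tested, Pearson's r of the log2 fold changes was -0.0028 and Spearman's rho 0.089 across loci, which share the same 6 libraries. The signs were the same for 65 (55.1%). For loci that overlap the row, r was -0.083 over 30, and for those apart by up to 10 kb it was -0.11 over 34. For those further apart r was 0.034 and rho 0.25 over 54, with the same sign in 33 (61.1%). Some rows, such as Robo2 and Csmd1, are the nearest row of several loci, so these pairs are not all separate. The levels showed little relation too, with a rho of 0.073 over 286 loci, and 117 loci (40.9%) had a higher mean FPKM than their nearest row.

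**Figure D5:**
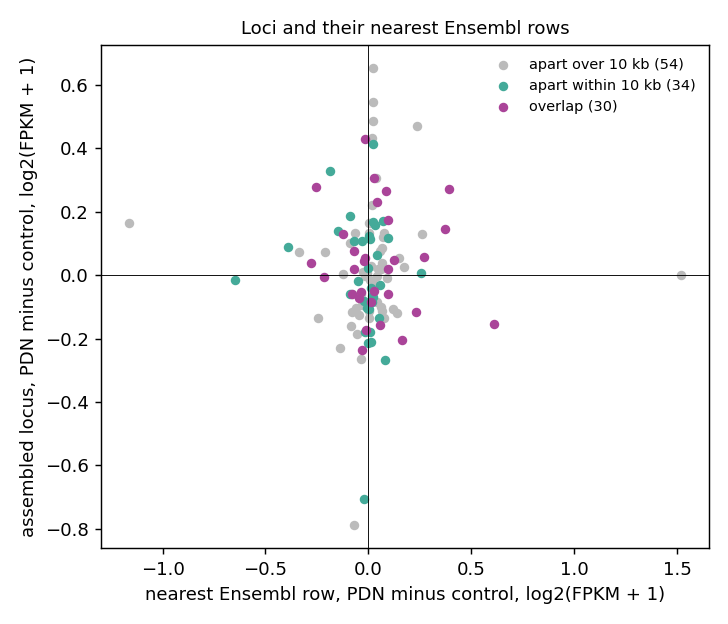
Log2 fold changes of PDN over control, from log2(FPKM + 1), for the 118 assembled loci tested (vertical) and their nearest Ensembl rows (horizontal), coloured by whether they overlap, lie within 10 kb or lie further apart. The points scatter around 0 with no slope, and Pearson's r is -0.0028.

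The longest and the shortest loci show the range of what was assembled. XLOC_073784 spans 950736 bases of chromosome 15 (100282583 to 101233318) and was at 2.54, 2.45 and 3.47 FPKM in controls and at 4.64, 5.47 and 2.92 in PDN. PDN 3 lay within the control range. The locus contains nearly all of the clone-named row AABR07019341.2. That row was at 0.464, 0.462 and 0.398 FPKM in controls and 0.629, 0.485 and 0.566 in PDN. It was below the filter and not tested, so it is not among the nearest rows compared above. RefSeq places the proteoglycan gene Gpc5 and 3 others between the neighbours of XLOC_073784, Slitrk5 and Gpc6.

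XLOC_061840 (513113 bases, chromosome 14) was at 0.563 to 1.76 FPKM and takes in the row of Pcdh7, a protocadherin gene, which was at 18.1 to 23.2. XLOC_040140 (502951 bases, chromosome 11), between Usp25 and Cxadr, was at 5.76 to 9.79 FPKM and contains the row AABR07033287.1, at 0.170 to 0.812. Levels inside such a span thus differed widely between the locus and the row it covers, in either direction.

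The shortest, XLOC_058691 with 930 bases on chromosome 13 between the pentraxin genes Crp and Apcs, was at 10.5 to 15.6 FPKM. XLOC_140853 (1099 bases) and XLOC_228704 (1124 bases) were at 0.434 to 0.727 and 0.545 to 1.34 FPKM. The 4 neighbouring loci on chromosome 12 lay between Ccdc92 (77.9 to 112 FPKM) and Tctn2 (17.9 to 21.8), where RefSeq has the dynein gene Dnah10 and the proton pump gene Atp6v0a2, and their highest value was 0.514 FPKM. The 3 on chromosome 10 beside Llgl2 reached 0.956 FPKM at most.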

How the data were processed

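Both tables cover the same 22536 rows and 6 libraries. The FPKM values are as the authors deposited them. Which aligner, assembler, annotation and build made them is not given in the sources used here. Trizol extraction and strand-specific libraries from 1 µg of RNA are stated per the labels' protocols. The other deposited table calls itself read counts and was treated as a score. In 54.5% to 54.8% of rows above 1000 its value equals FPKM times genomic span times 1 constant per library (relative tolerance 0.001), and in 25.7% to 27.3% of assembled loci above 1000, so no count model and no counting interval was used. What the constants stand for was not tested.

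The filter kept 13282 rows that reached 1 FPKM in 3 or more libraries. Their log2(FPKM + 1) values entered limma (3.58.1, under R 4.3.3) with group as the only term and a mean-variance trend, a step checked on simulated data. P-values were adjusted over these rows by the Benjamini-Hochberg method, with a threshold of 0.05. P-values weigh the group difference against the spread between these libraries, which limma moderates over all tested rows.

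Gaps and overlaps were computed from the table's loci, ignoring strand. RefSeq (GRCr8) served only for gene names and gene order.

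The members, marker lists and alternatives were chosen with earlier results of these data known. The rule named the 8 most abundant loci, 5 per direction with the smallest p among groups that do not overlap (4 qualified on the lower side), the 3 longest and 3 shortest, the 5 with the highest ratio of SD to mean, loci at 0 in 1 group, and sets of neighbouring loci. Of the sets of neighbouring loci the rule asked for 3, but the third place was shared by 18 sets and was left out. Other loci named were chosen after their values were seen.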

Additional observations from a re-analysis of the deposited data

How the results depend on the processing

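No assembled locus passed the adjusted threshold under any of 15 alternatives, and the lowest adjusted p in limma was 0.109, without a filter. That value belongs to XLOC_204777, which was listed at 0 in each PDN library. The loci at an unadjusted p under 0.05, 7 as reported, were 12 without a filter, 2 with the filter at 5 FPKM, where fewer loci (54) are tested, and 3 to 12 when each library was left out. Over all rows the count past the threshold was 0 as reported, 1 without a filter, 1 without a trend, 1 with robust empirical Bayes, 2 in the second table, 9 without control 2 and PDN 3 together, and 0 to 6 when each library was left out (3 and 2 with control 1 or control 3 removed, 4 and 6 with PDN 1 or PDN 3 removed). The median log2 fold change of the loci lay between -0.028 and 0.029 with any single library removed.

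Among the 9 loci with a fold change by the rule, 129 of 132 alternative values kept their direction. The other 3 were in the second table: XLOC_091423 (-0.0682), XLOC_205106 (0.0116) and XLOC_212960 (0.0432), and the cause was not tested. The labels number replicates in both groups. Deviations of same-numbered libraries from their group means correlated at 0.171, -0.12 and -0.0865. The highest value, 0.269, was between control 2 and PDN 3, the libraries with the highest muscle marker sums. Not every library thus correlated best with its own number. These few correlations cannot settle whether the numbers mark pairs. With the replicate block, 8 loci were at an unadjusted p under 0.05 and 0 passed the adjusted threshold.

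Overlap with an Ensembl row fell from 48 to 27 loci when 50% of the locus had to be covered, and 202 loci were within 50 kb, against 124 within 10 kb. At 5 FPKM 54 loci remained in at least 3 libraries. Overlap by strand was not run because the table gives no strand. Depth per locus is unknown, so the counting error of values under 1 FPKM could not be computed and is not shown here.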

Other observations

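In 4 loci a single library was listed at 0 while each of the other 5 was at 0.3 FPKM or more, a limit set after the values were seen. XLOC_164125 (chromosome 4, 27042021 to 27071267), between Fzd1 and Cyp51, was listed at 0 in PDN 1 and was at 3.32 to 3.94 FPKM in the other 5. XLOC_025735, between Gldc and Dkk1, where RefSeq has the lectin gene Mbl2, was listed at 0 in control 1 and at 0.485 to 0.761 FPKM elsewhere. XLOC_021453 was listed at 0 in control 3 and XLOC_105483 in control 2.

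Some intervals between named genes held several assembled loci. The most were 5 between Stk39 and Cers6 on chromosome 3, where RefSeq places 4932414N04Rikl. XLOC_107973 near the start of chromosome 19 overlapped 7 Ensembl rows, the most of any locus. XLOC_197532 on chromosome 6 had a mean of 1.34 FPKM and lies wholly inside the row AABR07064719.1, whose mean was 4302 FPKM, and inside that of Klhdc1, at 2317 FPKM.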
